A study of Caenorhabditis elegans with 2 samples.

Results

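The regions described here are 336 peaks of the nematode Caenorhabditis elegans at which the protein B0019.2 was found by chromatin immunoprecipitation and sequencing (ChIP-seq) in each of 2 libraries. They were chosen by overlap: a peak of the authors' conservative list made from both libraries was taken where it overlapped, by at least 50% of either peak, a peak in the thresholded list of replicate 1 and also a peak in that of replicate 2. The rule kept 336 of 900 peaks, or 37.3% of the conservative list. The other 564 peaks of that list comprised 129 matched in the replicate 1 list alone, 106 matched in the replicate 2 list alone and 329 matched in neither. Both libraries came from whole young adult worms of strain RW12288, aged 63.5 h and grown from starved L1 larvae, in which the endogenous B0019.2 gene carried an insertion of TY1, EGFP and 3xFLAG tags made with CRISPR. The precipitating antibody was directed against GFP, and the libraries are biological replicates per the labels. There was 1 group and control libraries were not analysed here, so no condition was compared. The strain is a single edited line, and in whole worms the tissue in which a region was bound cannot be told apart.

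B0019.2 is annotated in RefSeq as a protein with an SPK domain, a domain found in a family of nematode proteins. A ChIP-seq peak marks a region whose fragments were recovered with the tagged protein, and its summit is the base of highest signal. Many nematode genes lie close together, in operons or as divergent pairs that share the stretch between their starts, so a summit can stand within reach of several gene starts. In hermaphrodites of this age the germline makes oocytes and loads them with RNA and protein for the embryo. Because the lists were made from signal values, the ranks and signal values of the chosen peaks are descriptions and no test was made on them.

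The summit base with 50 bases on either side is shown for 9 shared peaks, because these windows carry the short sequences counted later. They are among the 12 strongest off the first chromosome whose window touched no annotated exon, and the other 3, nearest WBGene00023323, rps-24 and nstp-10, held none of those sequences. Each is read from the plus strand of the RefSeq genome (assembly WBcel235, the same coordinates as ce11), 5′ to 3′, and is named by the nearest gene start. Capitals mark the letters of CGCG, those of TACGGT and those of GAANNTTC, searched on both strands.
rpl-15, chrIV:654879-654979: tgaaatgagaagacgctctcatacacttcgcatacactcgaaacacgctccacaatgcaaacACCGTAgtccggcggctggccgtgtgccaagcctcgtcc
rpl-3, chrIII:3867530-3867630: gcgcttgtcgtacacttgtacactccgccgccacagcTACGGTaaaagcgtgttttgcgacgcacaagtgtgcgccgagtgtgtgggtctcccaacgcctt
C46C2.12, chrIV:9196383-9196483: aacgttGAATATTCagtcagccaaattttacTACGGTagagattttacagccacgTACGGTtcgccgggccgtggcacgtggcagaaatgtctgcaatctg
T06D8.9, chrII:11241611-11241711: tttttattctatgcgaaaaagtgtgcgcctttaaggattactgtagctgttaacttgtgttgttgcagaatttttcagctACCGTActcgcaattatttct
hcp-3, chrIII:9617060-9617160: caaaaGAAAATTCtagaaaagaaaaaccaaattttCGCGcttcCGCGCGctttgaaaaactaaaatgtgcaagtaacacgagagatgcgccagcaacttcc
sco-1, chrII:4299402-4299502: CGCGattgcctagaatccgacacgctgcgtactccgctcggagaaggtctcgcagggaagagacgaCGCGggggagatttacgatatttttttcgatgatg
rpl-35, chrIII:7854638-7854738: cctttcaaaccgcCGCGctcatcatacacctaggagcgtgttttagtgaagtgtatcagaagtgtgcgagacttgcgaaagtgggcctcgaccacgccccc
mog-4, chrII:14561821-14561921: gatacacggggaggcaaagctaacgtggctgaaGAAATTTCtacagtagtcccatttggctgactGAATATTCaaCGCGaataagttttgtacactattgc
21ur-963, chrIV:15896029-15896129: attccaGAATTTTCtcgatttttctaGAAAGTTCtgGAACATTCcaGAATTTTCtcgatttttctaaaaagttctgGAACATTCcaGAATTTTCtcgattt
The windows of hcp-3 and sco-1 held 3 and 2 starts of CGCG. That of C46C2.12 held 2 of TACGGT and 1 of GAANNTTC. The window nearest the piRNA gene 21ur-963 held none of the first pair and 6 of GAANNTTC, spread over a repeated stretch. The window of rpl-15 was 55.4% G and C, against 30.7% for that of 21ur-963.

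Shared peaks filled the top of the conservative list. Among ranks 1 to 100 by signal value 99 peaks were shared, the next 100 ranks held 98, and the 100 after those held 79. The steps of 100 that followed held 36, 15, 7 and 2, and no peak below rank 675 was shared. The signal value, which the authors give with no stated scale, had a median of 149 in the shared peaks (quartiles 121 and 196, range 77.3 to 697) and of 81.8 in the other 564. The median −log10 IDR (irreproducible discovery rate, which scores the agreement of ranks between inputs) was 4.17 in shared peaks and 2.58 in the others. The matches of the 336 shared peaks were 336 different peaks in each library list. The deciding overlap, the smaller of the best overlaps in the 2 lists, had a median of 98.0%.

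**Figure D1:**
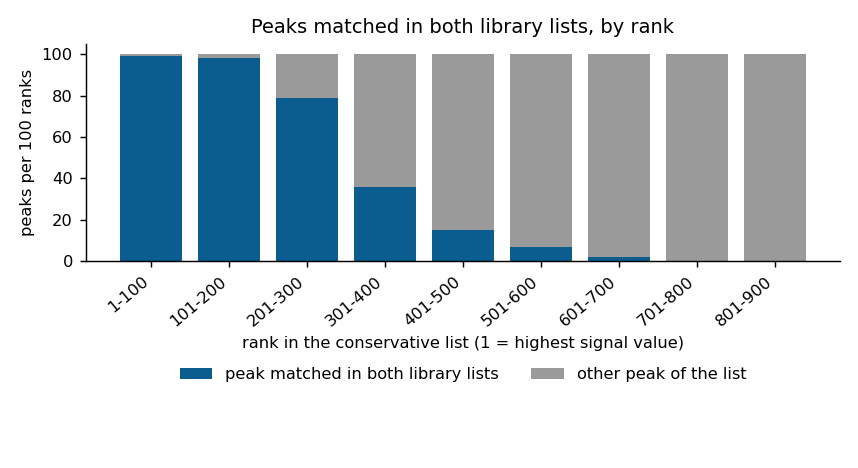
Number of peaks per 100 ranks of the conservative list that were matched in both library lists (blue) or not (grey), with rank 1 the highest signal value. Shared peaks make up 99 of the first 100 ranks and 0 of ranks 701 to 800.

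The overlap rule left a wide margin. The 3 shared peaks just inside it lay in an intron of mdt-26 (deciding overlap 67.2%), upstream of cpt-2 (68.4%) and near C36E6.8 (71.3%). The 3 other peaks just outside it had deciding overlaps of 24.6% (nearest Y102A11A.11, signal value 106), 23.9% (F58G1.12, 2.19) and 23.4% (Y54G2A.38, 2.79). The lowest shared peak by signal, at rank 675, lay nearest the ncRNA gene F43D9.8 and ranked 481 of 524 in replicate 1 and 485 of 496 in replicate 2. Next above it stood the peaks nearest F55H12.2 (signal value 79.0) and sas-7 (84.7), a gene of centriole assembly. The pseudogene WBGene00023260 (88.8), pqn-51 (89.6) and the ncRNA gene Y53G8AR.10 (89.7) completed the lowest 6.

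Peaks of high signal that were not shared were few. The highest, at rank 20 with a signal value of 337, lay on chromosome X at 1375266 to 1375333, 3258 bp from the start of fbxa-190. It matched a replicate 2 peak at rank 40 of 496 and overlapped no candidate of replicate 1 by the same rule. The next, at rank 153, lay upstream of syp-6 and in the window of mei-2, a gene of the meiotic spindle. It matched rank 105 in replicate 1, and its candidate in replicate 2 ranked 393. The others of the highest 6 were nearest C01G10.7 (rank 163), F09E5.18 (209), icd-2 (216) and M117.12 (217, also in the window of the 14-3-3 gene par-5). Of the 129 peaks matched in replicate 1 alone, 127 had a ranked candidate in replicate 2, with a median rank of 814. For the 106 matched in replicate 2 alone, 103 had one in replicate 1, with a median rank of 829. The shared peaks had median candidate ranks of 202 in replicate 1 and 218.5 in replicate 2.

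Both libraries placed the shared peaks in a broadly similar order. The signal value ranged from 41.6 to 363 in replicate 1 (median 78.1) and from 37.8 to 327 in replicate 2 (median 71.3). Of the 10 highest peaks in each library list, 8 shared peaks were in both, as were 37 of the 50 highest and 73 of the 100 highest. The Spearman correlation of signal values between replicates was 0.75 across the 336 peaks. It was 0.63 over the 168 with the highest conservative signal and 0.19 over the other 168, as a description across peaks that share their libraries and a narrower range of values. The conservative signal used for this split itself had correlations of 0.93 with replicate 1 and 0.92 with replicate 2. The split can therefore lower the correlation within each part, and 0.19 cannot be read as weaker agreement. Each library list entered the choice of peaks, so these values say nothing about peaks that were not chosen.

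**Figure D2:**
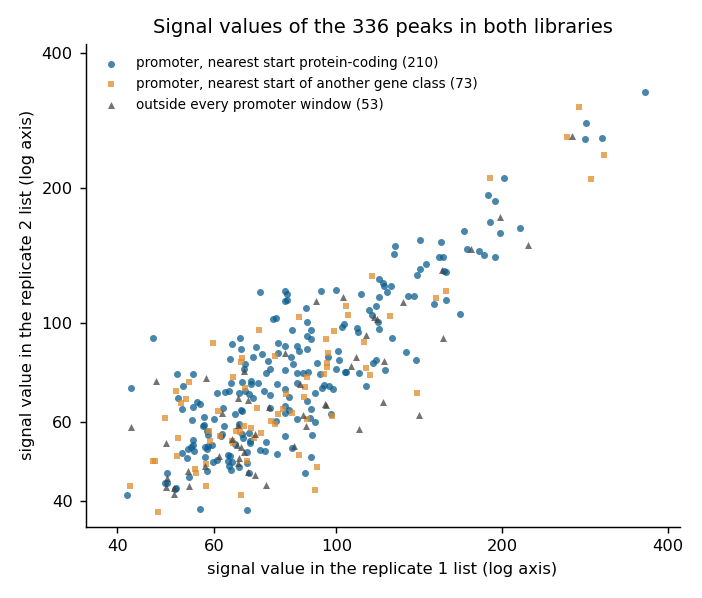
Signal value of each of the 336 shared peaks in the replicate 1 list (x) and the replicate 2 list (y), both on log axes, with colours for the place of the summit. The 9 strongest peaks have replicate 1 values of at least 263 and the next highest is 222, while the 3 kinds of place overlap.

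The 9 strongest shared peaks ranked within the first 11 of each library list, in differing order. The peak of egg-4, which encodes an inactive phosphatase of the oocyte-to-embryo transition, ranked 1 in all 3 lists with signal values of 363 in replicate 1 and 327 in replicate 2. That of rpl-15 ranked 5 and 3 in the 2 libraries, that of mog-4 3 and 6, and that of rpl-3 6 and 7. The peak nearest C46C2.12 ranked 2 in replicate 1 and 8 in replicate 2, that nearest C10G11.12 ranked 7 and 2, and that nearest 21ur-963 ranked 4 and 11. The summit in an intron of T06D8.10 ranked 8 and 4, and the one nearest the pseudogene WBGene00023323 ranked 9 and 5.

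Other shared peaks stood far apart in the 2 lists. The largest difference was at ima-2, an importin alpha gene of the germline, whose peak ranked 492 of 524 in replicate 1 with a signal value of 46.5 and 88 of 496 in replicate 2 with 92.7. That is a difference of 76.2 percentile points, against a median absolute difference of 11.2 over the 336 peaks. Peaks nearest Y54G11A.2, efa-6, F10E9.11 (also in the window of the centriole gene sas-4), the tRNA gene WBGene00023110 and eif-3.C followed in the same direction. In the opposite direction, the peak at the snoRNA gene F55A11.10 ranked 119 in replicate 1 and 471 in replicate 2. That of egg-1, a receptor-like protein of the oocyte surface needed for fertilization, ranked 135 in replicate 1 and 425 in replicate 2. H27M09.6, mdt-26, npp-6 and ani-1 were the others of the 6 largest in that direction. At X, the peak nearest Y102A11A.11 ranked 41 in replicate 1 and 241 in replicate 2.

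Summit positions were close, but the overlap rule itself limits their distance. Most of these peaks and of their matches had a single width in each list. With summits within 100 bp asked in place of the overlap, 337 peaks were kept. The closeness is therefore partly set by the choice of peaks, and no other group was compared. The 2 libraries' summits lay a median of 14.5 bp apart (quartiles 6 and 31.2, highest 119). They lay within 20 bp of each other at 201 of the 336 peaks (59.8%) and within 50 bp at 300 (89.3%). The median was 13 bp over the 168 strongest and 18 bp over the other 168. Of the shared peaks, 261 had the width of 270 bp and 75 were narrower, with a median signal value of 137 in the wide peaks and 262 in the narrow ones. Among the 50 strongest shared peaks 49 were narrower than 270 bp, while 563 of the other 564 conservative peaks had that width.

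Most shared summits lay just upstream of genes. A promoter window was taken to run from 1000 bp before to 200 bp past a gene's annotated start. Such windows held 283 of the 336 shared summits, or 84.2% (exact 95% binomial interval 79.9 to 88.0, as for all intervals below). They held 443 of the other 564 summits, or 78.5% (74.9 to 81.9), and 34.5% of the 54691 remaining ranked candidates. The order turned over ranks 201 to 500, where they held 81.5% of shared summits (73.8 to 87.8) and 87.1% of other summits (81.1 to 91.7). The window of a protein-coding gene held 242 shared summits, 72.0% (66.9 to 76.8), against 54.3% (50.04 to 58.4) of the others and 22.7% of the candidates. No shared summit lay in a coding exon outside such windows (0 of 336, interval 0 to 1.09), against 20 of the other 564 (3.55%) and 23.6% of the candidates. Of those 20, 19 were among the 329 peaks matched in neither list. Peaks matched in replicate 1 alone had 0 of 129, and those in replicate 2 alone 1 of 106. The promoter share was 84.5% in replicate 1 alone, 80.2% in replicate 2 alone and 75.7% in neither. For protein-coding windows the shares were 68.2%, 53.8% and 48.9%. A low coding exon share and a high promoter share were therefore not particular to shared peaks. Introns held 22 shared summits (6.55%), and 25 (7.44%) were intergenic. The 5′ UTR, 3′ UTR and non-coding exon classes held 2 each. These intervals cover counting error only, peaks near each other are not independent, and no test of the difference between groups was made.

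**Figure D3:**
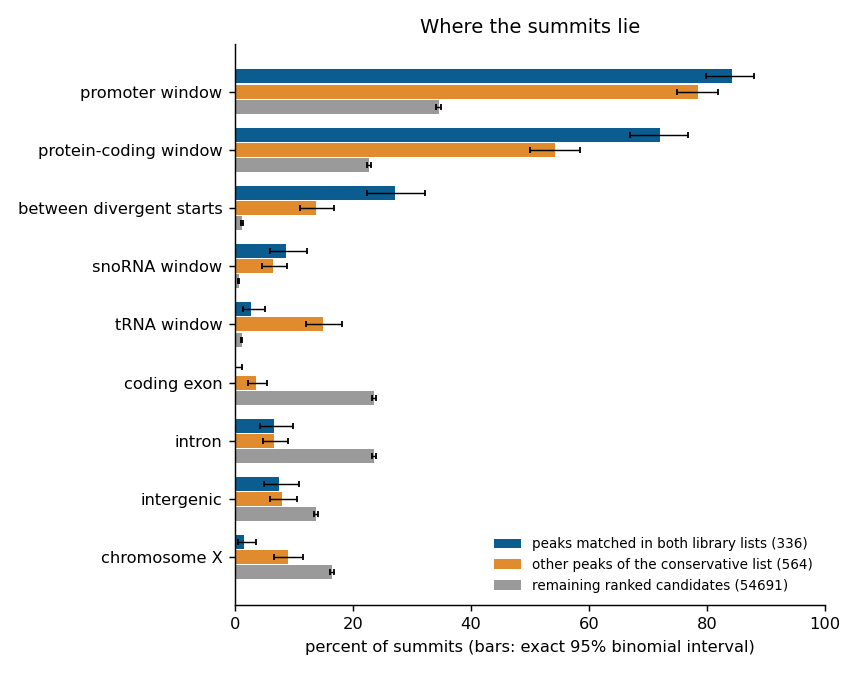
Percent of summits in each place for shared peaks (blue, 336), other peaks of the conservative list (orange, 564) and remaining ranked candidates (grey, 54691), with exact 95% binomial intervals. Coding exons held 0 shared summits and tRNA windows 2.68%, against 14.9% of the other peaks in tRNA windows.

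The summits stood on the upstream side, in a window that itself reaches 1000 bp upstream and only 200 bp downstream. Of the 283 promoter summits, 255 (90.1%) were upstream of the nearest start, and the median position of all 283 was 169 bp upstream. Of the other 443 promoter summits 72.5% were upstream, and the median position of all 443 was 69 bp upstream. The upstream share of the candidates' promoter summits was 76.8%. Counted to the nearest protein-coding start, the medians were closer, at 220 bp upstream in shared peaks (quartiles 121 and 365) and 210 bp in the others. In protein-coding windows, 96.3% of shared, 90.2% of other and 78.8% of candidate summits were upstream. The share was 93.2% in peaks matched in replicate 1 alone, 96.5% in replicate 2 alone and 86.3% in neither. A high upstream share was therefore not particular to shared peaks. Divergent pairs were common: 91 shared summits (27.1%, interval 22.4 to 32.2) lay between 2 protein-coding genes that point away from each other with starts within 1000 bp. This held for 77 of the other peaks (13.7%, 10.9 to 16.8) and for 1.14% of the candidates. At such summits both genes count as having the peak, and 116 shared summits lay in the windows of 2 or more protein-coding genes. Examples are the summits between ubc-6 and aka-1, between wapl-1 and the H2A variant gene htz-1, and between npp-3 of the nuclear pore and the topoisomerase gene top-2.

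Chromosome X held few shared peaks, and tRNA windows held a lower share of shared than of other conservative peaks. X had 5 of the 336 (1.49%, interval 0.485 to 3.44), against 50 of the other 564 (8.87%, 6.65 to 11.5) and 16.4% of the candidates. No protein-coding gene of X, of 2731, had a shared summit in its window, while 2.0995% of autosomal protein-coding genes had one. The 5 peaks lay at the tRNA genes WBGene00023110 and WBGene00000308, at a non-coding exon of C30E1.9, and in intergenic stretches nearest Y102A11A.11 and C36E6.8. The window of a tRNA gene held 9 shared summits (2.68%, 1.23 to 5.02) against 84 others (14.9%, 12.1 to 18.1) and 1.095% of the candidates. Within 150 bp of the tRNA start lay 5 of the 9 and 83 of the 84. Of the summits on X, 2 of the 5 shared and 33 of the 50 others lay in a tRNA window. The X and tRNA shares of the other peaks therefore rest partly on the same peaks. Density per Mb was 0.282 shared peaks on X, against 2.01 on chromosome V and 5.37 on chromosome III. With the overlap asked of a single library list, the X share was 4.52% without replicate 1 and 2.58% without replicate 2, and the tRNA share was 5.88% and 4.95%.

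Rank moved with these shares, since shared peaks sat higher in the list and tRNA windows lower. Ranks 1 to 100 held 1 summit in a tRNA window, and ranks 401 to 500 held 20. Over ranks 201 to 500, where 130 peaks were shared and 170 were not, tRNA windows held 5 shared summits (3.85%, interval 1.26 to 8.75) and 24 others (14.1%, 9.26 to 20.3). X held 4 shared (3.08%, 0.845 to 7.69) and 13 others (7.65%, 4.13 to 12.7) there. Promoter windows held 106 of the 130 shared summits (81.5%) and 148 of the 170 others (87.1%). The protein-coding window shares were near each other, at 67.7% of shared and 66.5% of other summits, as were those between divergent starts, at 25.4% and 21.8%. The median signal over these ranks was 118 in shared and 100.9 in other peaks, and the part of signal in the shares was not tested.

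Protein-coding genes with a shared summit in their window numbered 362 of 19973, or 1.81%, and over all annotated genes the share was 1.07%. Counting 1 gene a summit, the closest, left 209 of them. A further 404 had a summit of another conservative peak only. Of the 362 genes, 120 were in at least 1 of 22 gene lists and 242 in none. The median signal value over the 362 genes was 150. The lists are read against 1.81%, and genes that share a summit are counted singly. Because the lists were chosen with earlier results of these data known, their shares and order are descriptions and were not tested.

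Genes of oogenesis and maternal RNA had shared summits at 18 of 63 (28.6%), with a median signal value of 155, and 13 of the 18 were the nearest start. The eggshell was represented by cpg-1, a chondroitin proteoglycan, with signal values of 194 in replicate 1 and 140 in replicate 2. Its relative cpg-2 had 72.2 and 73.3, and the chitin synthase gene chs-1 had 75.7 and 78.9. The egg-5 peak, of a partner of egg-4, ranked 22 and 25 in the 2 libraries. Genes for RNA-binding regulators of the early embryo included mex-1 (ranks 158 and 49), pos-1 (92 and 104), mex-5 (129 and 200) and spn-4 (319 and 252). The polarity genes par-3 (139 and 143) and par-2 (237 and 132) and the yolk receptor gene rme-2 (153 and 344) were also among them. The remaining members were larp-1, nos-3, puf-3, puf-11, egg-1 and ifet-1. Some of these peaks also count in other lists. The par-2 summit lay 637 bp upstream of par-2, but 11 bp from the start of rab-18 and 137 bp from that of the cell cycle gene kbp-4. mex-5 shared its summit with rec-8 of the meiosis list, and ifet-1 with the ribosomal gene rps-1.

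Ribosomal protein genes had shared summits at 19 of 82 (23.2%), with a median signal value of 173. In 10 of these the gene was the nearest start, and in the other 9 it shared the summit with a closer gene. A further 18 ribosomal protein genes had another conservative peak only. The summits of rps-24 and rpl-35 lay 339 and 446 bp upstream. The peak of rps-24 ranked 17 in replicate 1 and 13 in replicate 2, and that of rpl-35 ranked 12 and 16. rpl-7A ranked 52 and 42, with its summit 66 bp upstream. rps-23 ranked 50 and 26 and rpl-20 30 and 34, both at summits nearer to another gene. Lower in the list, rpl-13 ranked 415 and 221, and rpl-36.A 342 and 461.

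Genes of the cell cycle and DNA replication had shared summits at 24 of 119 (20.2%), with a median signal value of 168, and 14 were the nearest start. Several belong to the kinetochore, which ties chromosomes to the spindle. hcp-3, the centromeric histone H3, ranked 13 in replicate 1 and 10 in replicate 2. hcp-4, the CENP-C protein bound to it, ranked 35 and 28, and czw-1 ranked 49 and 22. hcp-1 ranked 197 and 47, rod-1 179 and 72, and knl-3 185 and 189. Replication genes were rpa-2 (ranks 19 and 9), mcm-2 (77 and 50), the sliding clamp gene pcn-1 (132 and 87), mcm-3 (195 and 109) and rpa-1 (399 and 378). The DRM complex, a repressor of cell cycle and germline genes that includes an E2F partner, was represented by lin-9 (167 and 59), lin-53 (109 and 165) and lin-54 (173 and 108). The lin-54 summit lay 349 bp upstream of lin-54 and 44 bp upstream of rpl-12, which is counted with the same peak in the ribosomal list. The centriole genes sas-4, zyg-1 and sas-7 ranked from 236 to 450 in replicate 1 and from 148 to 455 in replicate 2.

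**Figure D4:**
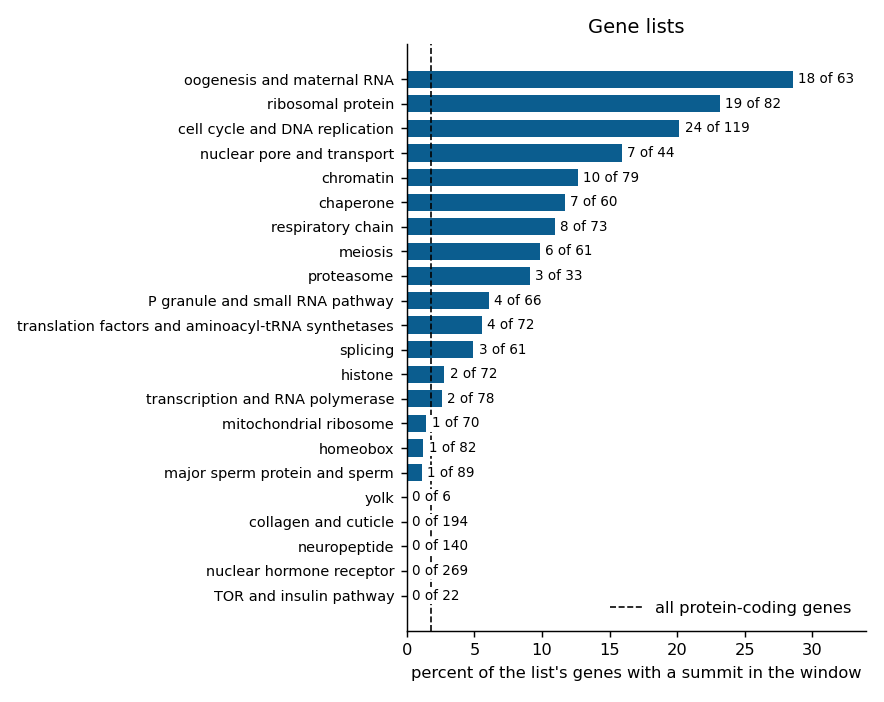
Percent of the protein-coding genes of each list whose window held a shared summit, with counts beside the bars, and a dashed line at 1.81% for all protein-coding genes. Oogenesis and maternal RNA, ribosomal protein and cell cycle genes are at the top, and 5 lists have 0 genes. The lists were chosen with earlier results of these data known.

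The nuclear pore and transport list followed with 7 of 44 (15.9%), led by npp-3 (47 and 105) and ran-1 (103 and 125). Chromatin genes had 10 of 79 (12.7%). They include unc-85, an ASF1 histone chaperone (ranks 24 and 23), set-16, an MLL-type methyltransferase (57 and 41), htz-1 (44 and 118), the remodeller gene isw-1 (157 and 56) and set-2 (353 and 268). Chaperone genes had 7 of 60 (11.7%), among them the CCT subunits cct-8, cct-5 and cct-7 and the mitochondrial hsp-60. Respiratory chain genes had 8 of 73 (11.0%), led by ndua-8 (29 and 35) and cox-5B (66 and 63). Meiosis genes had 6 of 61 (9.84%): the cohesin regulator wapl-1 (44 and 118), rec-8, coh-4, syp-5, syp-4 and zhp-2. The proteasome list had 3 of 33, splicing 3 of 61, P granule and small RNA 4 of 66, and translation factors 4 of 72. The 2 histone genes, his-67 and his-68, shared 1 summit.

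Start windows of the largest gene lists held no shared summit. These were 0 of 194 collagen and cuticle genes, 0 of 140 neuropeptide genes and 0 of 269 nuclear hormone receptor genes. Another conservative peak only was found at 2, 0 and 3 genes of these lists, in that order. The start windows of 6 yolk genes and 22 TOR and insulin pathway genes also held 0, but at 1.81% lists of that size are too short to read. A shared summit in an intron of let-363, the TOR kinase gene, lay outside its start window. Only spe-39, of 89 major sperm protein and sperm genes, and ceh-43, of 82 homeobox genes, had one, and each shared its summit with a closer start. The mitochondrial ribosome list had 1 of 70, mrpl-15, against 19 of 82 for the cytosolic ribosome. The transcription list had 2 of 78 (2.56%), rpb-12 and taf-11.3. The sperm (1.12%), homeobox (1.22%), mitochondrial ribosome (1.43%) and transcription shares were near that of all protein-coding genes. The B0019.2 gene, with the 1000 bp before its start, held no shared summit, and the nearest was 121 kb away.

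Small nucleolar RNAs (snoRNAs) guide the chemical modification of other RNAs. Of their 346 genes, 33 (9.54%) had a shared summit in the window, from 29 peaks, and 23 of the 29 summits lay within 150 bp of the snoRNA start. Those with the snoRNA as nearest start were led by F59C6.15 (57 bp upstream, ranks 27 and 45), ZK994.7 (12 bp, 85 and 62), C51F7.3 (47 bp, 141 and 70) and W03C9.9 (82 bp, 104 and 92). Another 36 snoRNA genes had only another conservative peak. Of 129 snRNA genes 7 (5.43%) had a shared summit, including the spliced leader genes sls-2.8 (43 and 182) and sls-2.1 (277 and 152). tRNA genes had 12 of 612 (1.96%), near the 1.81% of protein-coding genes, and 103 more had another peak only. rpr-1, the RNA subunit of RNase P, had a summit 19 bp upstream (ranks 71 and 150). Piwi-interacting RNA genes had 20 of 15363 (0.130%), from 10 peaks, since some summits lay in the windows of several such genes. Of the 20 genes 16 lay on chromosome IV, and the share of all such genes on that chromosome is not given here. Of 261 microRNA genes 3 had a shared summit in the window.

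Shared summits outside every window numbered 53. The windows used 1 start per gene. With every annotated transcript start, windows held 295 of the 336 shared summits (87.8%), so some of the 53 lie by another annotated start. The strongest of the 53 lay in an intron of T06D8.10 on chromosome II at 11241535 to 11241795. The next lay in an intron of nstp-10, 215 bp downstream of its start, with ranks of 11 and 21. A summit in an intron of let-363, the TOR kinase gene, ranked 14 in both libraries, 1939 bp upstream of vep-1. Intergenic summits nearest imb-3 (1235 bp upstream, ranks 23 and 24), the pseudogene WBGene00206420 (33 and 33), Y105E8B.9 (32 and 90), M02B1.3 (48 and 60) and the pseudogene WBGene00023318 (67 and 71) followed. Introns of tir-1, a NAD hydrolase of axon degeneration and immunity, held 2 shared summits 375 bp apart. The closest pair, 356 bp apart, lay by egg-5 and sls-2.4, and the others of the 6 closest were at enu-3.3 (393 bp), F43D9.8 and sip-1 (644), sms-3 (759) and C09E9.1 (1238). Over 330 neighbouring pairs on the same chromosome the median gap was 153 kb, and 23 gaps were within 5000 bp.

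The summits were rich in G and C over a short stretch. The median G and C share within 50 bp of the summit was 48.5% in shared peaks, 46.5% in the other peaks and 40.6% in the candidates. In windows centred 300 bp to either side it was 35.6% in shared peaks. CGCG occurred within 50 bp of 215 of 336 shared summits (64.0%), against 12.5% in their own flanks, 45.4% of other summits and 13.4% of candidates. Its nearest copy lay a median of 14.5 bp from the summit. The share was 61.6%, 68.8% and 61.6% in the 112 strongest, the 112 middle and the 112 weakest shared peaks. CGCG was present at 69.0% of shared summits in protein-coding windows and at 54.7% of those outside every window. Over ranks 201 to 500 it was at 66.2% of shared (interval 57.3 to 74.2) and 51.8% of other summits (44.0 to 59.5).

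Among all 2080 6-mers, counted on both strands, CGCGCC had the largest gap between summit and flank, at 25.9% of shared summits and 1.64% of flanks. The highest 6-mer with no CGCG and no GCGC in it was TACGGT, which was picked after its values were seen. It occurred at 71 shared summits (21.1%), against 2.68% of flanks, 9.57% of other summits and 3.40% of candidates. It was at 31.2% of the 112 strongest shared summits and 15.2% of the 112 weakest. Between divergent starts it was at 33.0%. Of the shared summits, 45 held TACGGT as well as CGCG, and 95 held neither.

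**Figure D5:**
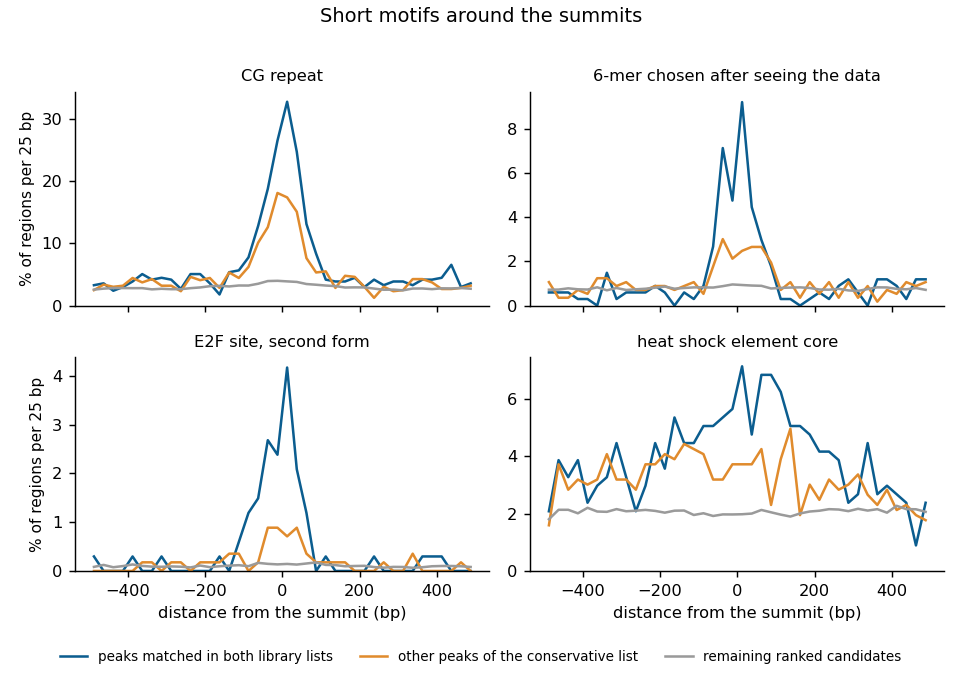
Percent of regions with a motif in each 25 bp bin, by distance of the bin from the summit, for shared peaks (blue), other conservative peaks (orange) and remaining candidates (grey). The CG repeat, the 6-mer chosen after seeing the data and the E2F form rise within 100 bp of shared summits, to 32.7%, 9.23% and 4.17% of regions, and the heat shock element core is spread more widely.

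Letters of known binding sites were counted in the same windows. The E2F form TTTCGCGC, which contains CGCG, was at 35 shared summits (10.4%), 18 other summits (3.19%) and 0.517% of candidates, against 0.149% of flanks of shared peaks. Of the 35, 34 lay in a protein-coding window. Of the other E2F forms, TTTGGCGC was at 2.38% of shared and 1.95% of other summits, and TTCCCGCC at 2.98% and 0.887%. GAANNTTC, the core of the heat shock element, was at 42 shared summits (12.5%), 8.33% of flanks and 7.62% of other summits. It was at 15 of the 53 shared summits outside every window (28.3%), at 5 of 10 in piRNA windows and at 0 of 29 in snoRNA windows. GAGAGA was at 13.7% of shared summits, 5.21% of flanks and 10.5% of other summits. The GATA site TGATAA was at 1.79% of shared summits, 9.67% of flanks and 4.08% of other summits. TTTTCAG, a splice acceptor sequence, was at 4.46% of shared summits, 14.1% of flanks and 4.43% of other summits. For these 3 the other summits also differed from the flanks of shared peaks in the same direction. GGTTCGA, the B box core of tRNA genes, was at 2.38% of shared summits and 7.80% of other summits. The cell cycle element TTTGAA was at 21.7% of shared summits, 21.4% of flanks and 19.1% of other summits. A match is a run of letters in the window and shows no binding of any factor.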

How the data were processed

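Several kinds of deposited peak list were used, a conservative thresholded list, another thresholded list and a ranked list from both libraries, and a thresholded and a ranked list per library. The authors deposited a signal value per peak, a non-negative signal with no stated scale, and in the ranked lists −log10 of the IDR. Per the labels and the readme files, each library's lists were derived from its own alignment and the conservative list from both alignments, each with a control, on ce11, and the thresholded lists name a further input that is not described. Aligner and caller: not given in the sources used here. 16 columns of values per input were not used.

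Members, gene lists and motifs were chosen with earlier results of these data known. Ranks are by signal value within a list. A summit was given to every gene whose window held it, on the Ensembl release 115 annotation of 6 nuclear chromosomes, and sequence came from RefSeq. Genes were named by a rule: the nearest start to the 60 strongest members, up to 6 per gene list or class, and the extremes of rank difference, signal, overlap, spacing and position outside windows. Others named as window partners or list members were chosen after their values were seen.

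Lists hold no counts, so depth is unknown. With 1 group of 2 libraries no test was made, and shares carry exact 95% binomial intervals. Overlap, window and motif counting were tested on simulated data. Alternatives changed the overlap rule, list, libraries, window, gene starts and assignment. Analyses used Python 3.11.15, numpy 2.4.6, scipy 1.17.1 and matplotlib 3.10.9.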

Additional observations from a re-analysis of the deposited data

How the results depend on the processing

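Of 63 alternative values, 55 stayed within the 95% interval of the main share or correlation, or within 1.5 times the main count, and 8 moved. With a 500 and 100 bp window 74.1% of member summits were in a promoter window, and with 2000 and 500 bp 89.6%. Given only to the nearest start, 209 protein-coding genes had a member summit in place of 362. Ribosomal protein genes numbered 10 in place of 19, and cell cycle genes 14 in place of 24. Within each of these lists every gene had its own summit (19 and 24 distinct peaks). The genes lost from them were therefore those with a closer start of a gene outside the list. With an overlap of at least 50% of both peaks, which kept 296 peaks, the rank correlation was 0.70. Where a single library decided, the number of peaks was 442 without replicate 1 and 465 without replicate 2. The X share then was 4.52% without replicate 1 and 2.58% without replicate 2, against 1.49%. The tRNA share was 5.88% and 4.95%, against 2.68%. The promoter share was 83.3% and 84.3%, and the protein-coding genes numbered 440 and 488. Alternatives added after seeing the data gave an X share of 0.917% without summits in a tRNA window, and a tRNA share of 1.49% within 150 bp of the start. That X share was computed for members only, with no matching value for the other peaks. No paired analysis was possible because there was 1 group. Depth is unknown, so no limit on weak regions can be given.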

Other observations

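Outside the conservative list, 71 ranked candidates of both libraries had a signal value at or above that of the lowest member and an IDR past the lowest in that list. None of the 71 lay within 300 bp of a conservative summit, 0 overlapped a peak of a library list by the same rule, 56 lay outside every promoter window and 13 were on chromosome X. The strongest, on chromosome X at 15810953 to 15811141 near the pseudogene WBGene00044155, had a signal value of 2023, against 697 for the strongest member. The readme files name, for the thresholded lists and not for the ranked ones, a further input that they do not describe, and its part in the absence of these candidates was not tested.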
